A study of Homo sapiens with 9 samples.

Results

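The libraries compared here came from A549 cells, an established human lung adenocarcinoma line, in which the long noncoding RNA LITATS1 was depleted with either of 2 short hairpin RNAs. The 3 libraries of the hairpin shLITATS1-1 were set against the 3 libraries of the hairpin shLITATS1-2. These are 6 of the 9 libraries of the series, taken by the hairpin in the sample title and by no measured value; the remaining 3 carried the non-targeting hairpin shNT and are given as the background level. Cells of all 3 groups had been exposed overnight to a lentiviral hairpin construct, grown for 2 days, and then kept for 3 days in 1 ng/mL puromycin before RNA isolation, so the shNT cells share the vector and the selection. The labels describe no other treatment, and no TGF-β was added according to them. No source used here gives the hairpins' target sequences. The labels call the replicates biological without saying that each came from its own transduction, so p-values reflect the spread from library to library, part of which may be technical.

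A short hairpin RNA is cut by Dicer into a duplex, and 1 strand guides an Argonaute complex to transcripts with a matching site. A full match leads to cleavage of the transcript, while a match to the seed region alone can lower other transcripts. For that reason a pair of hairpins against the same transcript is commonly run side by side. LITATS1 is known as a restraint on TGF-β signalling that acts on the type I receptor TGFBR1 together with the ubiquitin ligase SMURF2. In that pathway the ligand binds the type II receptor TGFBR2, which activates TGFBR1, and the phosphorylated SMAD2 and SMAD3 enter the nucleus with SMAD4. In epithelial cells the pathway is known for slowing division and for inducing matrix and mesenchymal genes.

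The hairpins left similar amounts of LITATS1. This gene (ENSG00000233621, GRCh38 chromosome 1, 37454879–37474411, minus strand, annotated in GENCODE 29 as an antisense transcript) had 72, 61 and 57 fragments in the shLITATS1-1 libraries and 69, 63 and 56 in the shLITATS1-2 libraries. The shNT libraries held 274, 283 and 328 fragments. In counts per 1000000 assigned fragments after TMM scaling (CPM), the level was 15.1 ± 1.51 in shNT, 3.33 ± 0.405 with shLITATS1-1 and 3.02 ± 0.321 with shLITATS1-2 (mean ± SD, n = 3, as for all CPM below). Both hairpin groups lay below every shNT library and overlapped each other. Between the hairpins the log2 difference was 0.14 (SE 0.16, edgeR quasi-likelihood test, Benjamini-Hochberg adjusted p = 0.438), and that p does not show the levels to be equal.

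Depth was even over the 9 libraries, with 19610514 to 19989652 fragments assigned to genes in each. Fragments with no alignment made up 3.66% to 3.86% of the shNT libraries, 5.53% to 5.57% of the shLITATS1-1 libraries and 5.39% to 5.50% of the shLITATS1-2 libraries. Mitochondrially encoded genes took 12.2% of the assigned fragments in shNT, 10.2% with shLITATS1-1 and 7.97% with shLITATS1-2. The summed level of 11 genes used as A549 identity markers was 15700 to 15990 CPM in shNT, 21550 to 22010 CPM with shLITATS1-1 and 10830 to 11200 CPM with shLITATS1-2. Within that list the lung lineage factor NKX2-1 had no fragment in the shNT and shLITATS1-1 libraries, while the aldehyde dehydrogenase ALDH1A1 and the keratins KRT8 and KRT18 were abundant in all 9. The sum mainly follows such abundant members. KRT19 and AKR1C1 went the other way, with more fragments in every shLITATS1-2 library than in any shLITATS1-1 library. Summed markers of other cell types stayed at 6.94 CPM or below for fibroblasts, 6.28 CPM for immune cells and 1.32 CPM for endothelium; the fibroblast sum was highest with shLITATS1-1, where the proteoglycan LUM stood at 3.60 CPM, and the immune sum with shLITATS1-2, where CD14 stood at 5.36 CPM. No library of either hairpin held a fragment of the immune genes CD3D, CD3E, FCGR3A and TYROBP or of the fibroblast gene DPT. The part of these markers, of the unaligned share and of the mitochondrial share in the results was not tested. These are bulk libraries, in which fewer cells that express a gene and less of its RNA per cell cannot be told apart.

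At these LITATS1 levels the transcriptomes of the hairpins differed over most of the expressed genes. Of 15500 genes tested, 9439 (60.9%) passed an adjusted p of 0.05, with 4684 (30.2%) higher with shLITATS1-1 and 4755 (30.7%) higher with shLITATS1-2. Most of these differences were small, with a median size of 0.41 on the log2 scale among the genes called. A difference of at least 2-fold was called for 1289 genes (8.32%), and there the sides were unequal, with 817 (5.27%) higher with shLITATS1-1 and 472 (3.05%) higher with shLITATS1-2. With a minimum count of 50 in the filter, 679 genes were called at 2-fold, 454 and 225 by direction. Of the 156 genes given with values, LITATS1 included, 62 share exonic bases with another annotated gene, and the strand setting of the count is in no source used here, so reads of such genes may be mixed. Protein-coding genes passed in 64.6% of cases (8447 of 13068 tested) and lincRNAs in 46.4% (295 of 636). Scaling by library size alone moved the median over all genes by 0.13 toward shLITATS1-2 and changed the split of calls to 3293 and 6912, so differences near 0 have no fixed direction. The high share of calls goes with replicates that varied little, with a common biological coefficient of variation of 2.71% over all genes. In a principal component analysis of the 6 libraries the first component held 76.7% of the variance and separated the hairpins, and the next held 6.31%. All log2 differences below are between the hairpins, named by the hairpin with the higher level. Counts of list members below stand beside the 30.2% and 30.7% called in each direction over all genes tested. Where a pair of levels is joined by "against", the first is that of shLITATS1-1 and the second that of shLITATS1-2. The genes named as higher passed an adjusted p of 0.05 by the same edgeR test unless said otherwise. Most were chosen by the size of their difference, so a lack of overlap between the hairpins in them is a description only. How many of all genes tested lack such overlap was not counted.

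**Figure D1:**
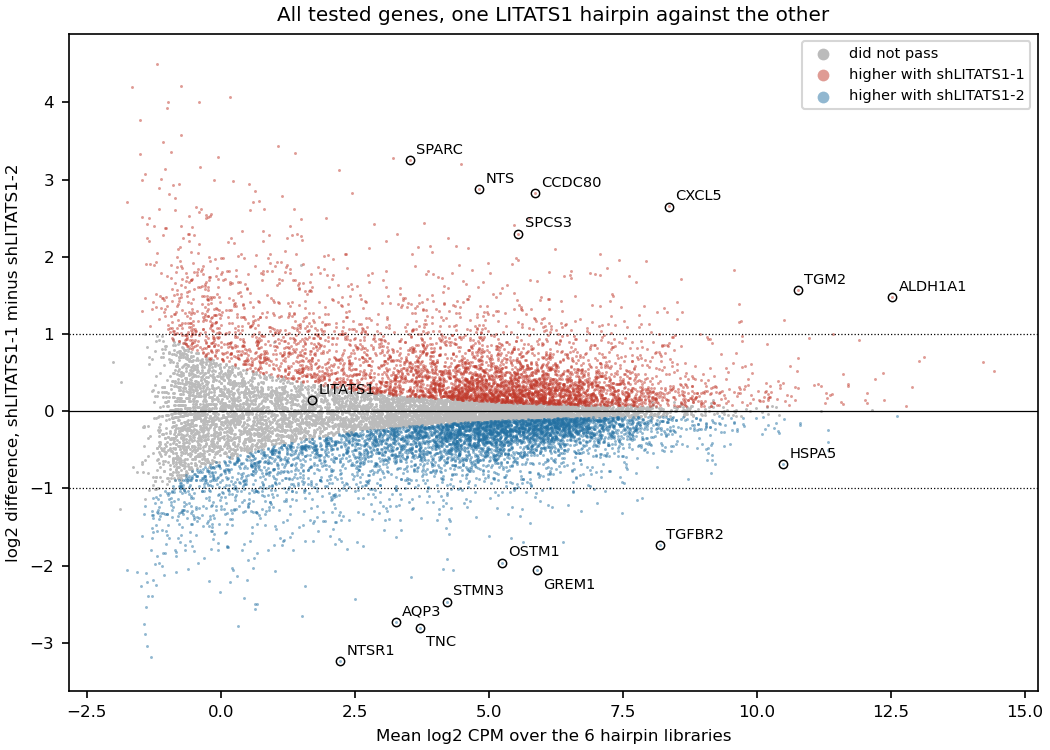
Each point is 1 of the 15500 tested genes, by its mean log2 CPM over the 6 hairpin libraries (x axis) and its log2 difference, shLITATS1-1 minus shLITATS1-2 (y axis), coloured by the call, with dotted lines at a 2-fold difference. The 817 genes at or above the upper line and called outnumber the 472 below the lower one, and LITATS1 lies close to 0.

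The largest excesses with shLITATS1-1 included genes of matrix, second messenger and ion transport proteins, named here by the size of their difference. SPARC, a collagen-binding matrix protein, read 36.1, 33.2 and 35.7 CPM in the shLITATS1-1 libraries and 4.01, 3.85 and 3.17 in the shLITATS1-2 libraries, against 13.3 ± 0.454 in shNT. No library of either hairpin overlapped the other group, and the log2 difference was 3.25 (SE 0.087) with an adjusted p of 1.79e-44. SPARC (ENSG00000113140, chromosome 5, 151661096–151687165, minus strand) shares exonic bases with a noncoding gene, so its count is uncertain to that extent. The cyclic nucleotide phosphodiesterase PDE3A read 64.7, 68.7 and 67.5 CPM with shLITATS1-1 and 6.76, 6.74 and 8.27 with shLITATS1-2, with 30.3 ± 1.47 in shNT. Its difference was 3.20 (SE 0.068), and shNT lay between the hairpins, as it did for SPARC. The inward rectifier potassium channel KCNJ16, the guanine nucleotide exchange factor RASGRP3 and the matrix protein CCDC80 differed by 3.28, 3.13 and 2.82. The sodium bicarbonate cotransporter SLC4A4 stood at 10.9 in shNT, 14.3 with shLITATS1-1 and 2.01 with shLITATS1-2, a difference of 2.82 (SE 0.13).

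For another set of genes on the same side, the shLITATS1-2 level lay far below that of shNT and the shLITATS1-1 level less far above it. SPCS3, a subunit of the signal peptidase, read 101, 90.2 and 93.2 CPM in shNT, 102, 106 and 102 with shLITATS1-1, and 20.3, 21.3 and 21.4 with shLITATS1-2. The mitochondrial adenylate kinase AK3 read 95.9, 94.9 and 98.8 CPM in shNT, 128, 129 and 127 with shLITATS1-1, and 24.2, 22.0 and 21.5 with shLITATS1-2. Complement component C5 read 89.2, 90.1 and 87.2 CPM in shNT, 99.7, 103 and 102 with shLITATS1-1, and 19.9, 17.2 and 20.4 with shLITATS1-2. In all 3 genes every shLITATS1-2 library was below every other library, and the differences were 2.30 (SE 0.049), 2.50 (SE 0.046) and 2.41 (SE 0.050).

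In the reverse case, seen for OSTM1 and SEMA6B, the shLITATS1-1 level lay far below both others. Every shLITATS1-2 library was also below every shNT library in these genes, by less. OSTM1, a partner of the lysosomal chloride transporter ClC-7, read 84.0, 80.7 and 83.5 CPM in shNT, 18.4, 19.4 and 19.7 with shLITATS1-1, and 72.3, 77.8 and 73.4 with shLITATS1-2. The transmembrane semaphorin SEMA6B read 46.0, 44.8 and 45.1 CPM in shNT, 9.20, 9.80 and 9.69 with shLITATS1-1, and 36.9, 35.4 and 35.5 with shLITATS1-2. Their differences were 1.96 (SE 0.052) and 1.91 (SE 0.068) toward shLITATS1-2, with no overlap between the hairpins.

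The largest excesses with shLITATS1-2 included a receptor whose ligand was on the other side. NTSR1, the high-affinity receptor of neurotensin, read 12.8, 14.9 and 14.0 CPM with shLITATS1-2, 1.53, 1.53 and 1.37 with shLITATS1-1 and 0.615, 0.768 and 0.514 in shNT, a difference of 3.23 (SE 0.14). NTS, which encodes neurotensin, read 77.3, 75.3 and 75.5 CPM with shLITATS1-1, 10.4, 9.73 and 10.8 with shLITATS1-2 and 26.8, 24.1 and 27.6 in shNT, a difference of 2.88 (SE 0.061) toward shLITATS1-1. The hairpin groups did not overlap in either gene. Tenascin C (TNC), a matrix glycoprotein of wounds and tumour stroma, read 35.3, 34.5 and 33.6 CPM with shLITATS1-2 against 4.26, 5.16 and 5.37 with shLITATS1-1 and 3.02, 4.91 and 4.16 in shNT. Its difference of 2.80 (SE 0.088) had an adjusted p of 9.45e-40. AQP3, a water and glycerol channel, stood at 13.8 in shNT, 3.69 with shLITATS1-1 and 24.4 with shLITATS1-2, a difference of 2.73 (SE 0.095). The microtubule-destabilising protein STMN3, the phospholipase PLCH2, the calcium-activated chloride channel ANO1 and the stress-response gene NIBAN1 differed by 2.46, 2.65, 2.07 and 1.79.

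**Figure D2:**
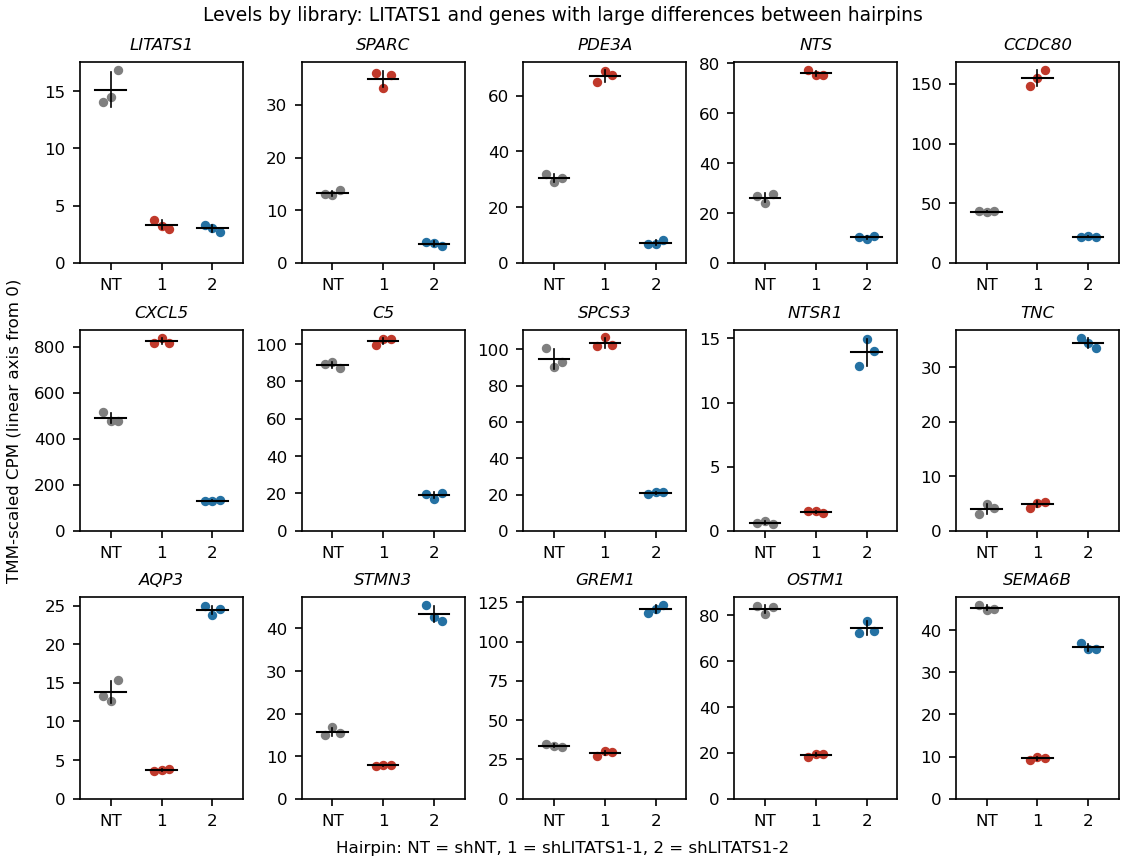
Levels of LITATS1 and of 14 genes with large differences, as TMM-scaled CPM on linear axes from 0 (y axis), in shNT, shLITATS1-1 and shLITATS1-2 (x axis), with 1 point per library, the mean as a bar and the SD as a vertical line (n = 3). LITATS1 overlaps between the hairpins, and the other genes, which were chosen by the size of their difference, do not. SPCS3 and C5 are low with shLITATS1-2 alone, while OSTM1 and SEMA6B are by far the lowest with shLITATS1-1.

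TGF-β signalling is the process the target is known for, and its receptors and SMADs were split between the hairpins. Of the receptors, SMADs and their regulators, 13 of 30 tested members were higher with shLITATS1-1, 10 with shLITATS1-2, and 7 did not pass the test (9 and 14 with library-size scaling); the median difference was 0.02 toward shLITATS1-1, beside 0.01 toward shLITATS1-2 over all genes, of which 30.2% and 30.7% were called in those directions. The type II receptor TGFBR2 differed most. It read 518, 540.4 and 534 CPM with shLITATS1-2, 159, 159 and 159 with shLITATS1-1 and 233, 227 and 229 in shNT, so the 3 groups were separate and shNT lay between the hairpins. The difference was 1.74 (SE 0.031), adjusted p 2.83e-55. The type I receptor TGFBR1 was close between the hairpins, at 137 ± 5.05 CPM with shLITATS1-1 and 123 ± 7.42 with shLITATS1-2, and both lay above the 67.5 ± 2.98 of shNT. Its difference of 0.16 (SE 0.038) toward shLITATS1-1 passed the test but no longer did with library-size scaling (0.03, adjusted p = 0.508) or a correction for GC content (0.02, adjusted p = 0.654).

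The activin type II receptor ACVR2B was higher with shLITATS1-2, with 8.16 against 21.4 CPM, and the BMP receptors BMPR1B and BMPR2 were higher with shLITATS1-1, with 35.9 against 17.3 CPM and 123 against 62.3 CPM. Among the signal transducers, SMAD3 was higher with shLITATS1-2, at 204 ± 4.49 against 295 ± 6.73 CPM, a difference of 0.53 (SE 0.031). SMAD2 differed by 0.17 toward shLITATS1-1, a call that was lost with library-size scaling (0.04, adjusted p = 0.350) and with the GC correction (0.04, adjusted p = 0.222). SMAD4 did not pass the test (37.7 against 35.7 CPM, adjusted p 0.208). SMURF2, the ubiquitin ligase that targets the type I receptor, was higher with shLITATS1-2, at 61.7 ± 0.961 against 101 ± 2.13 CPM, with 50.1 ± 2.75 in shNT. The related ligase SMURF1 differed in the same direction by 0.22 (SE 0.044). Some inhibitors that the pathway itself induces were on the other side: the inhibitory SMAD7 was 49.1 against 36.4 CPM and the SMAD corepressor SKIL was 131 against 76.9 CPM. The inhibitory SMAD6 and the corepressor SKI stood closer to the shLITATS1-2 end of the ranked differences than SMAD4, which did not pass. SKI lay on the shLITATS1-2 side. PMEPA1, a membrane protein that sequesters SMAD2 and SMAD3, read 1212, 1195 and 1240 CPM with shLITATS1-1 and 538, 543 and 561 with shLITATS1-2, with 312 ± 12.1 in shNT. Both hairpins were above shNT for PMEPA1, and the difference between them was 1.15 (SE 0.029).

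Ligands and activators were divided as well: 11 of 22 tested members were higher with shLITATS1-1, 8 with shLITATS1-2, and 3 did not pass the test. The integrin subunits ITGB6 and ITGB8, which activate latent TGF-β, were higher with shLITATS1-1, by 2.42 (SE 0.11) and 1.39 (SE 0.093). ITGB6 read 15.4, 16.2 and 18.4 CPM there and 3.19, 2.65 and 3.46 with shLITATS1-2. LTBP2, a latent TGF-β binding protein of the matrix, stood at 35.8 in shNT, 105 with shLITATS1-1 and 48.9 with shLITATS1-2. On the other side, the BMP antagonist GREM1 read 118, 121 and 123 CPM with shLITATS1-2 and 27.3, 30.1 and 29.7 with shLITATS1-1, against 33.8 ± 1.03 in shNT. The stress-induced family member GDF15 and the inhibin subunit INHBB stood at 27.5 against 89.2 CPM and 44.3 against 89.9 CPM and were therefore low with shLITATS1-1 alone, since shNT had 93.4 and 87.4 CPM.

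Established transcriptional targets of the pathway were more often higher with shLITATS1-1: 36 of 53 tested members were higher with shLITATS1-1, 9 with shLITATS1-2, and 8 did not pass the test. Their median difference was 0.41 toward shLITATS1-1; 17 members were at least 2-fold higher with shLITATS1-1 and 0 with shLITATS1-2. The crosslinking enzyme transglutaminase 2 (TGM2) read 2927, 2965 and 3049 CPM with shLITATS1-1 and 1004, 1030 and 980.2 with shLITATS1-2, with 1205 ± 27.2 in shNT. The basement membrane collagen chain COL4A1 read 72.7, 72.4 and 73.7 CPM in shNT, 259, 260.5 and 279 with shLITATS1-1, and 91.6, 90.6 and 97.3 with shLITATS1-2. Both genes were separate between the hairpins, and shLITATS1-2 lay above shNT for COL4A1 but below it for TGM2. IGFBP7, a secreted insulin-like growth factor binding protein, differed by 1.81 (SE 0.046). The actin-binding protein TAGLN read 40.5, 38.7 and 39.7 CPM with shLITATS1-1, 14.6, 15.7 and 12.9 with shLITATS1-2 and 3.64, 3.58 and 3.85 in shNT. It thus stood above shNT with both hairpins, by more with shLITATS1-1; it shares exonic bases with a neighbouring gene. Targets higher with shLITATS1-2 were fewer and closer: the small GTPase RHOB stood at 163 against 284 CPM, the sialomucin PODXL at 143 against 199 CPM and the fibronectin receptor subunit ITGA5 at 313 against 418 CPM. For PODXL and ITGA5 the shNT level was lower than both, at 49.1 and 97.5 CPM.

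**Figure D3:**
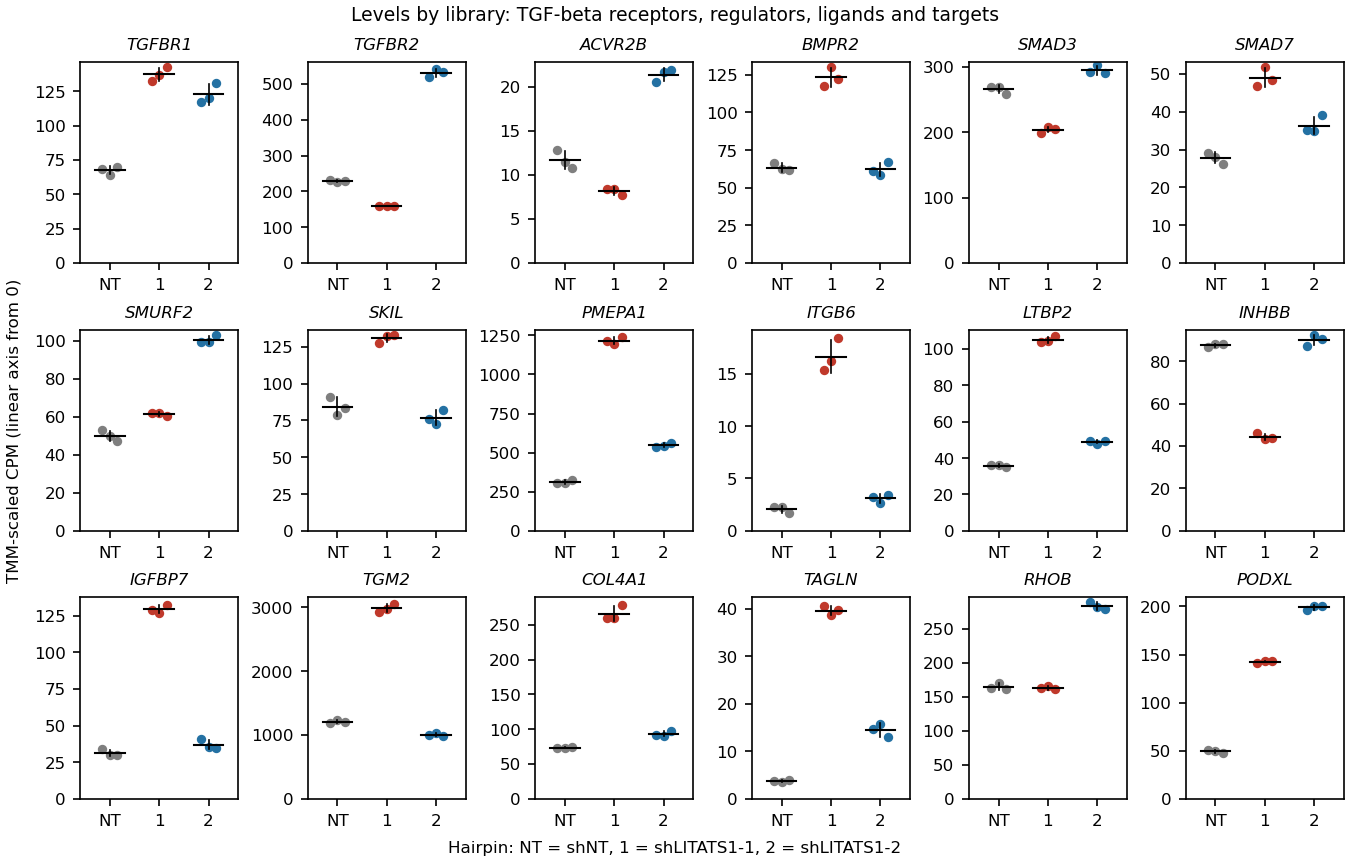
Levels of 18 TGF-β receptors, regulators, ligands and targets as TMM-scaled CPM on linear axes from 0 (y axis) in shNT, shLITATS1-1 and shLITATS1-2 (x axis), with 1 point per library, the mean as a bar and the SD as a vertical line (n = 3). TGFBR2, SMAD3 and SMURF2 are higher with shLITATS1-2, whereas PMEPA1, COL4A1 and TAGLN are higher with shLITATS1-1.

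The extracellular matrix was unequal between the hairpins and had its extremes on both sides. Of the matrix and basement membrane genes, 26 of 45 tested members were higher with shLITATS1-1, 7 with shLITATS1-2, and 12 did not pass the test (24 and 15 with library-size scaling), with a median of 0.27 toward shLITATS1-1 (0.14 with library-size scaling). Chains of the basement membrane collagen type IV went the same way: besides COL4A1, COL4A3 stood at 14.0 against 3.23 CPM and COL4A4 at 31.3 against 7.51 CPM, with 3.40 and 10.6 CPM in shNT. TNC and the transmembrane collagen COL13A1 were the strongest exceptions, the latter by 1.79 (SE 0.18) toward shLITATS1-2. Among enzymes that modify collagen, 13 of 21 tested members were higher with shLITATS1-1, 2 with shLITATS1-2, and 6 did not pass the test (10 and 6 with library-size scaling). The prolyl hydroxylase subunit P4HA3 stood at 32.6 in shNT, 105 with shLITATS1-1 and 37.7 with shLITATS1-2, while the collagen chaperone SERPINH1 was higher with shLITATS1-2, with 146 against 242 CPM. Matrix proteases and their inhibitors gave 17 members higher with shLITATS1-1, 9 higher with shLITATS1-2 and 7 that did not pass, of 33 tested (14 and 12 with library-size scaling). The membrane metalloprotease ADAM9 was higher with shLITATS1-1 (607 against 249.9 CPM) and the related sheddase ADAM17 with shLITATS1-2 (35.9 against 74.3 CPM, 63.7 CPM in shNT).

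Contractile genes were higher with shLITATS1-1 more often than the reverse, and mesenchymal genes were called in both directions. Of the mesenchymal genes, 18 of 36 tested members were higher with shLITATS1-1, 12 with shLITATS1-2, and 6 did not pass the test (16 and 15 with library-size scaling); of the contractile cytoskeleton, 19 of 28 tested members were higher with shLITATS1-1, 5 with shLITATS1-2, and 4 did not pass the test (16 and 8 with library-size scaling). The matrix proteoglycan versican (VCAN) stood at 90.9 in shNT, 196 with shLITATS1-1 and 75.4 with shLITATS1-2, and the adhesion protein LPP at 86.4 in shNT, 167 with shLITATS1-1 and 49.2 with shLITATS1-2. MYOCD, a cofactor of serum response factor in smooth muscle, was low throughout but differed, at 7.79 against 2.51 CPM and 1.54 CPM in shNT. The SNAI2 transcription factor, a repressor of epithelial genes, read 4.84, 6.96 and 5.22 CPM with shLITATS1-1 and 1.98, 2.36 and 2.02 with shLITATS1-2. The transcription factor TWIST2 went the other way, by 0.85 (SE 0.099), as did the myosin light chain kinase MYLK, by 0.53 (SE 0.049). Integrins and focal adhesion proteins gave 19 members higher with shLITATS1-1, 14 higher with shLITATS1-2 and 3 that did not pass, of 36 tested, with the adhesion scaffold TNS1 at 10.2 in shNT, 61.6 with shLITATS1-1 and 16.2 with shLITATS1-2. YAP, TAZ, TEAD factors and their targets gave 14 members higher with shLITATS1-1, 7 higher with shLITATS1-2 and 7 that did not pass, of 28 tested (14 and 11 with library-size scaling). TAZ itself (WWTR1) stood at 491 against 195 CPM and the DNA-binding partner TEAD1 at 279 against 131 CPM.

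Epithelial genes were also more often higher with shLITATS1-1. Among them, 14 of 28 tested members were higher with shLITATS1-1, 8 with shLITATS1-2, and 6 did not pass the test, with a median of 0.39 toward shLITATS1-1 (0.26 with library-size scaling). The simple-epithelial keratin KRT8 stood at 3035 in shNT, 5237 with shLITATS1-1 and 2757 with shLITATS1-2, and its partner KRT18 at 1151 in shNT, 2182 with shLITATS1-1 and 962 with shLITATS1-2. KRT8 and KRT18 overlap on opposite strands and both have many pseudogenes, so their counts are uncertain. KRT19 was higher with shLITATS1-2, at 110.1 against 162 CPM. Squamous genes were split: 7 of 19 tested members were higher with shLITATS1-1, 5 with shLITATS1-2, and 7 did not pass the test. The epidermal genes LCE3D and KRT6A were nearly absent in shNT (0.12 and 0.564 CPM) and stood at 7.86 and 6.41 CPM with shLITATS1-1. With shLITATS1-2 they read 0.771 and 1.14 CPM, while the basal keratin KRT15 went the other way, at 2.53 against 7.95 CPM. Of the lineage transcription factors, 13 of 33 tested members were higher with shLITATS1-1, 7 with shLITATS1-2, and 13 did not pass the test (12 and 10 with library-size scaling). TP63, the squamous and basal cell regulator, stood at 3.13 in shNT, 18.9 with shLITATS1-1 and 7.82 with shLITATS1-2, and the hepatic and intestinal factor HNF4G at 3.91 in shNT, 5.46 with shLITATS1-1 and 1.44 with shLITATS1-2.

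**Figure D4:**
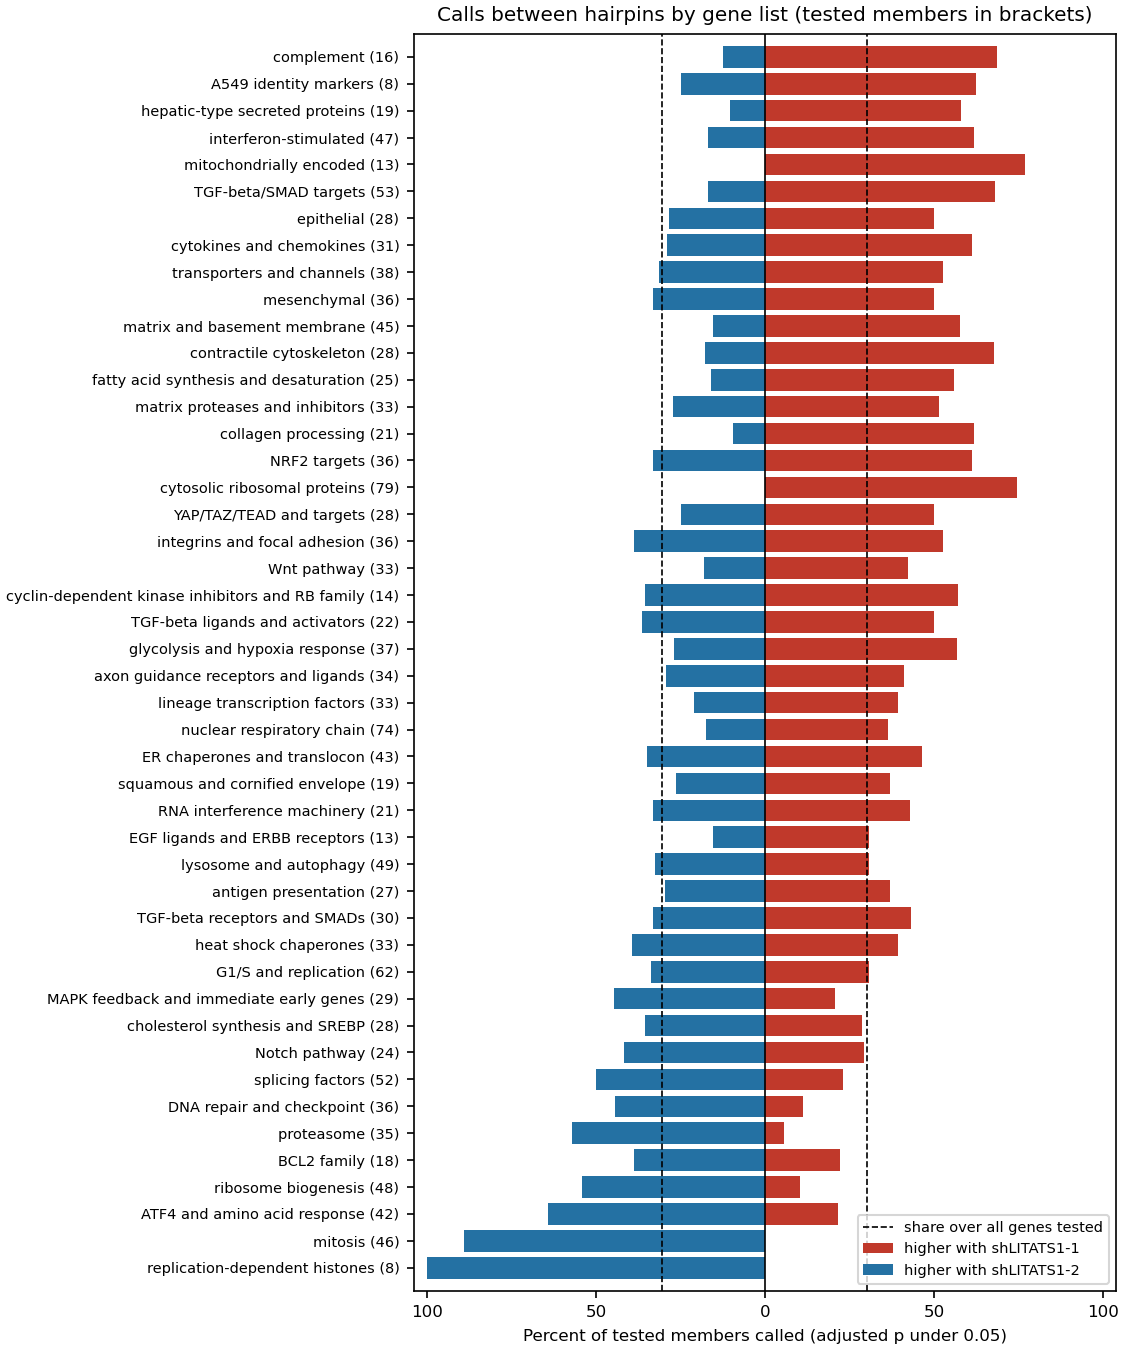
Share of the tested members of each gene list (y axis, tested members in brackets) that was higher with shLITATS1-1 (red, to the right) or with shLITATS1-2 (blue, to the left), in percent (x axis), with dashed lines at the share of all genes tested, 30.2% and 30.7%. Lists are ordered by their median difference, with replication-dependent histones and mitosis at the end toward shLITATS1-2.

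Secreted proteins of hepatic type, complement and cytokines were more often higher with shLITATS1-1. Of the complement genes, 11 of 16 tested members were higher with shLITATS1-1, 2 with shLITATS1-2, and 3 did not pass the test, and the median was 0.75 toward shLITATS1-1 (0.48 at a minimum count of 50 and 0.50 without the mitochondrially encoded genes). Complement C3, the central component, read 270.3, 273 and 277 CPM with shLITATS1-1, 67.5, 63.9 and 68.2 with shLITATS1-2 and 87.0, 92.0 and 84.6 in shNT. Its level was above shNT with one hairpin and below it with the other. C4BPB, a chain of the C4b-binding protein, rested on few fragments, 39, 38 and 31 with shLITATS1-1 and 4, 0 and 2 with shLITATS1-2. Clusterin (CLU) and factor D (CFD) were the members higher with shLITATS1-2, by 0.43 and 0.44. Of hepatic-type secreted proteins, 11 of 19 tested members were higher with shLITATS1-1, 2 with shLITATS1-2, and 6 did not pass the test; the fibrinogen chains FGA and FGG stood at 75.2 against 25.9 CPM and 54.0 against 24.0 CPM.

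Among cytokines and chemokines, 19 of 31 tested members were higher with shLITATS1-1, 9 with shLITATS1-2, and 3 did not pass the test. The neutrophil chemokine CXCL5 read 516, 478 and 479.7 CPM in shNT, 819, 840.1 and 816 with shLITATS1-1, and 130.3, 129 and 134 with shLITATS1-2, a difference of 2.65 (SE 0.033). The 3 groups were separate, with shNT between the hairpins. IL11, a cytokine of the IL6 family that TGF-β is known to induce, stood at 51.1 in shNT, 107 with shLITATS1-1 and 33.3 with shLITATS1-2. The alarmin IL33 rested on low levels, with 56, 68 and 65 fragments with shLITATS1-1 and 24, 21 and 33 with shLITATS1-2. Colony-stimulating factor 1 (CSF1) and the NF-κB subunit NFKB2 were higher with shLITATS1-2, with 39.6 against 59.9 CPM and 85.9 against 112 CPM.

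Interferon-stimulated genes were also more often higher with shLITATS1-1. Many of them carry the interferon-stimulated response element within the proximal promoter. With the letters GAAANNGAAA on either strand, this element was found in 23 of the 37 promoters of the list that matched by symbol (62.2%), against 3.65% of 27305 promoters of the same length. Those 27305 include genes that were not tested, and of the 11290 promoters of genes tested 2.80% held the element. The promoters of the 2 genes with the largest differences among the list's called members with the element are shown because the element stands near the start site in both. They run from 250 bases before to 50 bases after the start site (RefSeq, GRCh38.p14), in lower case with the element in capitals, which reads as its reverse complement where it lies on the other strand: IFIT1 on the plus strand at chr10:89392373-89392672 and DDX60 on the minus strand at chr4:168318703-168319002.

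IFIT1: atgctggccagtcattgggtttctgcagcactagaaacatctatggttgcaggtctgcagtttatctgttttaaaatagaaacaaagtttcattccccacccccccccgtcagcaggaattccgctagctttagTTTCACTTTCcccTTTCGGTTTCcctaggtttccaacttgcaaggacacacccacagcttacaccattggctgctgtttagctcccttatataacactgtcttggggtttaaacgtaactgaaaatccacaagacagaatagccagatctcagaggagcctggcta
DDX60: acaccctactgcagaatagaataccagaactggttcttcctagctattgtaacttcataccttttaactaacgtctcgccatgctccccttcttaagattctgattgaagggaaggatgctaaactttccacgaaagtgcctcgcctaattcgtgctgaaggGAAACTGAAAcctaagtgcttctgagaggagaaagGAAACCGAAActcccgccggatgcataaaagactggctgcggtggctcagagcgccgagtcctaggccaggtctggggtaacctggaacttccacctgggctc

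A match of letters is a description and not a measured binding site. In the list, 29 of 47 tested members were higher with shLITATS1-1, 8 with shLITATS1-2, and 10 did not pass the test, with a median of 0.46 toward shLITATS1-1. IFIT1, an RNA-binding antiviral protein, read 117, 124 and 121 CPM with shLITATS1-1, 51.0, 56.0 and 56.3 with shLITATS1-2 and 45.5, 43.8 and 46.3 in shNT. The helicase DDX60 read 18.9, 16.5 and 17.4 CPM in shNT, 50.8, 48.4 and 49.2 with shLITATS1-1, and 25.8, 26.1 and 25.7 with shLITATS1-2. In both genes the hairpins were separate, and shLITATS1-2 was nearer to shNT. OASL, a relative of the oligoadenylate synthetases, stood at 64.9 in shNT, 219.8 with shLITATS1-1 and 109 with shLITATS1-2, and IFIT2, which shares exonic bases with a neighbouring gene, at 51.4 in shNT, 146 with shLITATS1-1 and 65.0 with shLITATS1-2. Among the 23 genes with the element 16 were higher with shLITATS1-1 and 2 with shLITATS1-2 (median 0.54), and among the 14 without it the counts were 9 and 3 (median 0.29). The members higher with shLITATS1-2 included the membrane restriction factor IFITM3 (20.4 against 29.1 CPM) and the guanylate-binding protein GBP2 (4.05 against 7.82 CPM). Genes of antigen presentation were split, as 10 of 27 tested members were higher with shLITATS1-1, 8 with shLITATS1-2, and 9 did not pass the test (6 and 10 with library-size scaling); the NKG2D ligand RAET1G stood at 2.20 in shNT, 15.7 with shLITATS1-1 and 4.45 with shLITATS1-2, and the immunoproteasome subunit PSMB9 at 7.06 in shNT, 3.09 with shLITATS1-1 and 6.55 with shLITATS1-2.

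Genes of mitosis that passed the test were all higher with shLITATS1-2. Of these genes, 0 of 46 tested members were higher with shLITATS1-1, 41 with shLITATS1-2, and 5 did not pass the test, and the median was 0.51 toward shLITATS1-2. Their promoters often hold the cell cycle genes homology region, through which the DREAM and MuvB complexes act, together with CCAAT boxes bound by NF-Y. The letters TTTGAA on either strand were found in 25 of the 38 mitosis promoters that matched (65.8%), against 15.4% of 27305 promoters, and CCAAT in 30 (78.9%), against 35.7%. Among the 11290 promoters of genes tested these shares were 9.69% for TTTGAA and 36.1% for CCAAT. The promoters of the 2 called genes with the largest differences among those holding TTTGAA are shown with that motif in capitals because it lies just before the start site in both: CCNB2 on the plus strand at chr15:59104896-59105195 and HMMR on the plus strand at chr5:163460382-163460681.

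CCNB2: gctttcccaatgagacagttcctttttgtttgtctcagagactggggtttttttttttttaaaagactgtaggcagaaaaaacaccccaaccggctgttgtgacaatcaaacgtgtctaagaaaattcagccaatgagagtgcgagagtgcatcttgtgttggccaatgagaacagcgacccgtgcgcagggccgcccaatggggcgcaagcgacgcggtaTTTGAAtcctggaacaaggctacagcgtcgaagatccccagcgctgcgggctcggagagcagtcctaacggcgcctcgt
HMMR: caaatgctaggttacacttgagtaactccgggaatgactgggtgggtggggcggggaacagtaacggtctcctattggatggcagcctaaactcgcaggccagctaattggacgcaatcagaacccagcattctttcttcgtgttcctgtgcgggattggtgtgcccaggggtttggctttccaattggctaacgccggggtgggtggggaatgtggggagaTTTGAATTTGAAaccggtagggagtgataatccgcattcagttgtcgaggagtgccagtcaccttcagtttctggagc

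Cyclin B2 (CCNB2), which drives entry into mitosis with CDK1, read 76.9, 81.5 and 82.7 CPM in shNT, 33.4, 37.5 and 35.5 with shLITATS1-1, and 66.8, 70.4 and 65.1 with shLITATS1-2. HMMR, a spindle assembly protein, read 74.4, 69.5 and 66.8 CPM in shNT, 29.9, 32.8 and 31.5 with shLITATS1-1, and 57.0, 61.9 and 59.9 with shLITATS1-2. The 3 groups were separate in both genes, with shLITATS1-1 lowest and shLITATS1-2 between it and shNT. Securin (PTTG1), the spindle checkpoint kinase BUB1 and the kinesin KIF20A had the same order, with differences of 0.96, 0.83 and 0.86. Of the 25 members with TTTGAA, 21 were higher with shLITATS1-2 (median size 0.49), and of the 13 without it, all 13 were (median size 0.68).

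Genes of the G1/S transition and of DNA replication were called in both directions, at about the shares of all genes. These were 30.65% and 33.87% of the members, beside 30.22% and 30.68% of all genes tested. In this list, 19 of 62 tested members were higher with shLITATS1-1, 21 with shLITATS1-2, and 22 did not pass the test (11 and 34 with library-size scaling), and the median was 0.01 toward shLITATS1-2. The transcription factors E2F1, E2F2 and E2F8 were higher with shLITATS1-2, by 0.47, 0.61 and 0.78, while E2F3 and cyclin D3 (CCND3) were higher with shLITATS1-1, by 0.73 and 0.90. DNA repair and checkpoint genes gave 4 members higher with shLITATS1-1, 16 higher with shLITATS1-2 and 16 that did not pass, of 36 tested. These differences were small, with a median of 0.10 toward shLITATS1-2, and a test against a minimum change of 1.5-fold called 1 and 0. FANCD2, of the Fanconi anaemia pathway of crosslink repair, stood at 36.7 in shNT, 17.1 with shLITATS1-1 and 28.0 with shLITATS1-2. All 8 tested replication-dependent histone genes were higher with shLITATS1-2, with a median of 0.62 toward shLITATS1-2. Their main transcripts lack poly(A) tails, and the members are near-identical copies, so these counts are uncertain; H2BC12 stood at 26.8 in shNT, 28.3 with shLITATS1-1 and 46.9 with shLITATS1-2. Cyclin-dependent kinase inhibitors with the pocket proteins and E2F partners gave 8 members higher with shLITATS1-1, 5 higher with shLITATS1-2 and 1 that did not pass, of 14 tested (4 and 5 with library-size scaling). In the BCL2 family of apoptosis regulators, 4 of 18 tested members were higher with shLITATS1-1, 7 with shLITATS1-2, and 7 did not pass the test. The pro-apoptotic BMF was higher with shLITATS1-2 (2.33 against 7.68 CPM) and BCL2A1 with shLITATS1-1 (2.7 against 0.530 CPM).

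**Figure D5:**
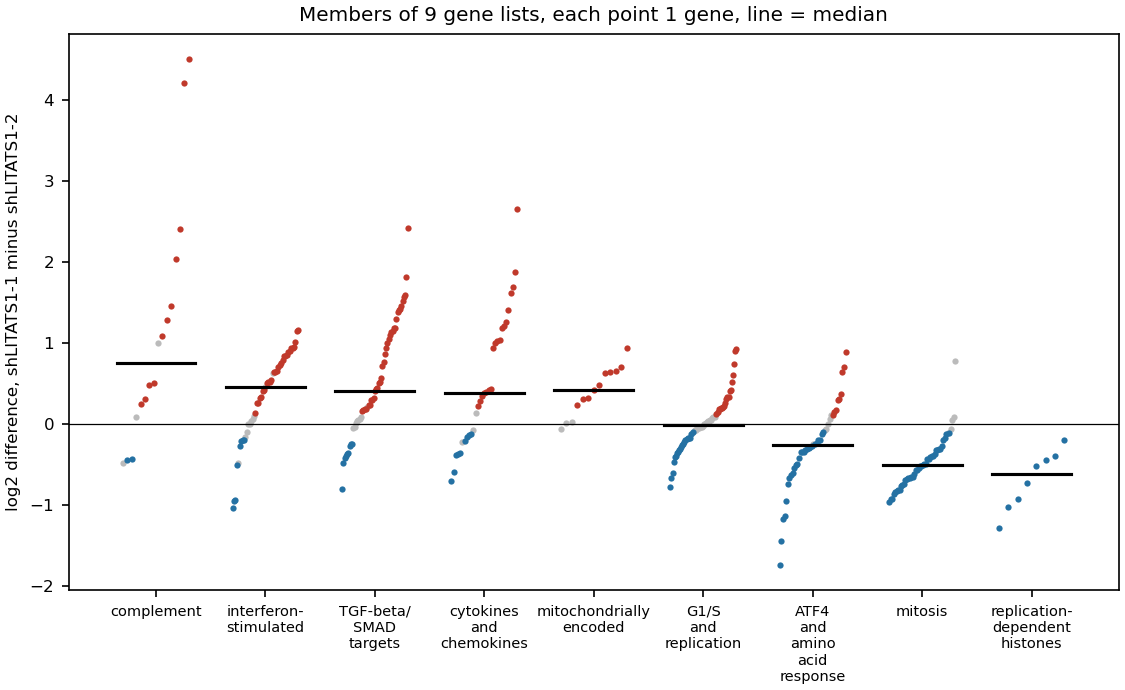
log2 difference between the hairpins, shLITATS1-1 minus shLITATS1-2 (y axis), for each tested member of 9 gene lists (x axis), with 1 point per gene, red where higher with shLITATS1-1, blue where higher with shLITATS1-2 and grey where the test was not passed, and a line at the median. No mitosis or histone gene is red, the complement gene C4BPB, among the highest points, rests on few fragments, and the medians of complement and interferon-stimulated genes lie above 0.

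The amino acid response driven by ATF4, a transcription factor translated under nutrient and unfolded protein stress, had more genes higher with shLITATS1-2 than with shLITATS1-1. Of its genes, 9 of 42 tested members were higher with shLITATS1-1, 27 with shLITATS1-2, and 6 did not pass the test, with a median of 0.26 toward shLITATS1-2 (0.39 with library-size scaling). ATF4 binds a composite element with C/EBP factors, whose letters TGATGNAA, searched on both strands, were found in 10 of the 34 promoters of the list that matched (29.4%), against 3.67% of all. Among the 11290 promoters of genes tested, 1.71% held the element. CHAC1 on the plus strand at chr15:40953221-40953520 and CARS1 on the minus strand at chr11:3057374-3057673 are the 2 called genes with the largest differences among those holding it, shown with the element in capitals because its place differs, here as the reverse complement: it lies upstream in CHAC1 and spans the start site in CARS1.

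CHAC1: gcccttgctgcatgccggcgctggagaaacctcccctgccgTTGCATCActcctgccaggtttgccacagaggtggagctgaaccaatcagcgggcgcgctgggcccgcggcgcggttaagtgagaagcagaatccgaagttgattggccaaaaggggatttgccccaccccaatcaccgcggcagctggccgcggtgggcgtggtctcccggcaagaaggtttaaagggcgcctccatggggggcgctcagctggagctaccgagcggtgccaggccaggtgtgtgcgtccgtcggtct
CARS1: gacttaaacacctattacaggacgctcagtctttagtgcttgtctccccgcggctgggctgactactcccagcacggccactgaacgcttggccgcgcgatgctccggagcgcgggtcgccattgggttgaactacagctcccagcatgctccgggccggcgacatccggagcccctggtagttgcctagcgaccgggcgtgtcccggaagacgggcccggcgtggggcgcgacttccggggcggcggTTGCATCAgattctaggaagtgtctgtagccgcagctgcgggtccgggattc

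CHAC1, which degrades glutathione, read 5.38, 6.55 and 5.86 CPM in shNT, 2.47, 2.42 and 2.84 with shLITATS1-1, and 7.15, 6.88 and 6.97 with shLITATS1-2. The pseudokinase TRIB3 read 191, 207 and 197 CPM in shNT, 85.7, 83.4 and 78.3 with shLITATS1-1, and 160.1, 159.6 and 159 with shLITATS1-2. NUPR1, a stress-induced chromatin protein, read 8.76, 9.98 and 9.09 CPM in shNT, 3.58, 3.06 and 3.42 with shLITATS1-1, and 11.3, 10.7 and 11.6 with shLITATS1-2. All 3 were lowest with shLITATS1-1, where no library reached the other groups. Of the 10 genes with the element 5 were higher with shLITATS1-2 and 1 with shLITATS1-1, and of the 24 without it 17 and 7. Within the proline and cysteine pathways, ALDH18A1 and CTH were exceptions, by 0.70 and 0.65 toward shLITATS1-1.

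Genes of the endoplasmic reticulum were called in both directions. Over the list, 20 of 43 tested members were higher with shLITATS1-1, 15 with shLITATS1-2, and 8 did not pass the test (12 and 19 with library-size scaling). Among the members, the chaperones and folding factors HSPA5, CRELD2, MANF and SDF2L1 were higher with shLITATS1-2. HSPA5, the major lumenal chaperone, read 1070, 1060 and 1065 CPM in shNT, 1125, 1131 and 1142 with shLITATS1-1, and 1794, 1834 and 1835 with shLITATS1-2, a difference of 0.69 (SE 0.027). The others differed by 0.82, 0.66 and 0.64. The signal peptidase subunits SPCS3 and SEC11A and the translocation protein TRAM1 were higher with shLITATS1-1. SEC11A stood at 231 in shNT, 266 with shLITATS1-1 and 94.7 with shLITATS1-2, and TRAM1 at 767 in shNT, 1424 with shLITATS1-1 and 402 with shLITATS1-2. These members were chosen by the size of their difference, and no group of them was tested. Heat shock chaperones were balanced, as 13 of 33 tested members were higher with shLITATS1-1, 13 with shLITATS1-2, and 7 did not pass the test (8 and 19 with library-size scaling).

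Most transcripts of the mitochondrial genome were higher with shLITATS1-1: 10 of 13 tested members were higher with shLITATS1-1, 0 with shLITATS1-2, and 3 did not pass the test, with a median of 0.42 toward shLITATS1-1. The cytochrome oxidase subunit gene MT-CO1 read 23094, 22818 and 22037 CPM in shNT, 23098, 23999 and 24067 with shLITATS1-1, and 14847, 14729 and 16218 with shLITATS1-2. The complex I genes MT-ND4 and MT-ND6 stood at 11248 against 6910 CPM and 775 against 404 CPM. Respiratory chain genes of the nucleus were called in both directions, as 27 of 74 tested members were higher with shLITATS1-1, 13 with shLITATS1-2, and 34 did not pass the test (14 and 26 with library-size scaling) and the median was 0.08 toward shLITATS1-1. The iron-sulfur subunit UQCRFS1 was the largest exception toward shLITATS1-2, at 355 in shNT, 147 with shLITATS1-1 and 248 with shLITATS1-2. Cytosolic ribosomal proteins gave 59 members higher with shLITATS1-1, 0 higher with shLITATS1-2 and 20 that did not pass, of 79 tested (24 and 3 with library-size scaling), with a median of 0.17 toward shLITATS1-1 (0.04 with library-size scaling), which is close to the shift that library-size scaling brings. RPS23 and RPL22 stood out, at 154 against 46.0 CPM and 71.1 against 33.5 CPM; ribosomal protein genes have many processed pseudogenes, so their counts are uncertain. Ribosome biogenesis factors went the other way, as 5 of 48 tested members were higher with shLITATS1-1, 26 with shLITATS1-2, and 17 did not pass the test. Splicing factors gave 12 members higher with shLITATS1-1, 26 higher with shLITATS1-2 and 14 that did not pass, of 52 tested (3 and 40 with library-size scaling), with PRPF8, the core of the spliceosome, at 699.5 in shNT, 458 with shLITATS1-1 and 636 with shLITATS1-2. Of the proteasome genes, 2 of 35 tested members were higher with shLITATS1-1, 20 with shLITATS1-2, and 13 did not pass the test, and the ATPase subunit PSMC4 stood at 324 in shNT, 253 with shLITATS1-1 and 358 with shLITATS1-2.

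Targets of NRF2, which is constitutively active in A549 cells through mutation of its inhibitor KEAP1, were mixed. Of these, 22 of 36 tested members were higher with shLITATS1-1, 12 with shLITATS1-2, and 2 did not pass the test. ALDH1A1, the retinaldehyde dehydrogenase that is among the most abundant transcripts of this line, read 6408, 6232 and 6437 CPM in shNT, 9809, 9739 and 9914 with shLITATS1-1, and 3518, 3496 and 3549 with shLITATS1-2. Haem oxygenase 1 (HMOX1) and the glutathione peroxidase GPX2 had the same order, with 388 in shNT, 595 with shLITATS1-1 and 224 with shLITATS1-2 for HMOX1 and 262 in shNT, 383 with shLITATS1-1 and 148 with shLITATS1-2 for GPX2. The glutathione synthesis subunit GCLC was on the other side, at 199 in shNT, 97.2 with shLITATS1-1 and 168 with shLITATS1-2, as were OSGIN1 (20.6 against 38.0 CPM) and NR0B1 (10.1 against 26.6 CPM). Glycolysis and hypoxia genes gave 21 members higher with shLITATS1-1, 10 higher with shLITATS1-2 and 6 that did not pass, of 37 tested (17 and 14 with library-size scaling). The oxygen-regulated factor HIF1A stood at 596 in shNT, 747 with shLITATS1-1 and 391 with shLITATS1-2, and hexokinase 2 (HK2), at low levels, at 2.65 in shNT, 1.54 with shLITATS1-1 and 2.86 with shLITATS1-2. Genes of fatty acid synthesis and desaturation gave 14 members higher with shLITATS1-1, 4 higher with shLITATS1-2 and 7 that did not pass, of 25 tested (13 and 9 with library-size scaling), with ATP citrate lyase (ACLY) at 822 in shNT, 1152 with shLITATS1-1 and 616 with shLITATS1-2 and the desaturase SCD at 2573 in shNT, 1923 with shLITATS1-1 and 1284 with shLITATS1-2. In the cholesterol pathway, 8 of 28 tested members were higher with shLITATS1-1, 10 with shLITATS1-2, and 10 did not pass the test (3 and 14 with library-size scaling).

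Feedback and immediate early genes of the MAPK pathway were more often called higher with shLITATS1-2. Of these, 6 of 29 tested members were higher with shLITATS1-1, 13 with shLITATS1-2, and 10 did not pass the test, while the median was 0.02 toward shLITATS1-2, beside 0.01 toward shLITATS1-2 over all genes. The ERK phosphatase DUSP5 stood at 77.5 in shNT, 45.4 with shLITATS1-1 and 81.5 with shLITATS1-2, the ETS factor ETV4 at 70.9 in shNT, 38.1 with shLITATS1-1 and 71.6 with shLITATS1-2 and the AP-1 component FOSL1 at 63.8 in shNT, 33.2 with shLITATS1-1 and 63.6 with shLITATS1-2. All 3 were low with shLITATS1-1 alone, as was the receptor tyrosine kinase inhibitor SPRY1 (1.63 against 3.58 CPM, 3.62 CPM in shNT). DUSP1 and PHLDA1 were exceptions, by 0.70 and 0.94 toward shLITATS1-1. ERRFI1, a feedback inhibitor of EGFR, read 312, 325 and 331 CPM with shLITATS1-2, 145, 146 and 145 with shLITATS1-1 and 135, 127 and 128 in shNT. Of EGF ligands and ERBB receptors with their inhibitors, 4 of 13 tested members were higher with shLITATS1-1, 2 with shLITATS1-2, and 7 did not pass the test (2 and 4 with library-size scaling). The ERBB ligands neuregulin 1 (NRG1) and amphiregulin (AREG) were higher with shLITATS1-1, with 499 against 252 CPM and 47.6 against 24.2 CPM.

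Other developmental pathways had members on both sides. Of the Wnt pathway, 14 of 33 tested members were higher with shLITATS1-1, 6 with shLITATS1-2, and 13 did not pass the test (10 and 9 with library-size scaling); the receptor FZD8 stood at 26.2 in shNT, 49.0 with shLITATS1-1 and 20.5 with shLITATS1-2 and the coreceptor LRP5 at 135 in shNT, 90.7 with shLITATS1-1 and 159 with shLITATS1-2. Notch genes gave 7 members higher with shLITATS1-1, 10 higher with shLITATS1-2 and 7 that did not pass, of 24 tested. NOTCH2 was higher with shLITATS1-1 (119 against 73.8 CPM) and NOTCH3 with shLITATS1-2 (52.0 against 74.2 CPM). Among axon guidance genes, 14 of 34 tested members were higher with shLITATS1-1, 10 with shLITATS1-2, and 10 did not pass the test. The secreted semaphorin SEMA3A stood at 37.0 in shNT, 93.6 with shLITATS1-1 and 45.6 with shLITATS1-2, whereas the semaphorin receptor PLXNB2 and the netrin NTN4 were higher with shLITATS1-2, with 148 against 238 CPM and 109.7 against 177 CPM. Transporters and channels gave 20 members higher with shLITATS1-1, 12 higher with shLITATS1-2 and 6 that did not pass, of 38 tested; the iron exporter SLC40A1 stood at 37.0 in shNT, 77.2 with shLITATS1-1 and 31.1 with shLITATS1-2. Lysosome and autophagy genes were even, as 15 of 49 tested members were higher with shLITATS1-1, 16 with shLITATS1-2, and 18 did not pass the test (8 and 26 with library-size scaling). Those shares, 30.61% and 32.65%, were close to the 30.22% and 30.68% of all genes tested. The sterol-binding protein NPC2 stood at 134 against 68.6 CPM, and the protease cathepsin L (CTSL) at 429 against 745 CPM.

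Genes of RNA interference, the machinery that processes hairpins, were called in both directions. Here 9 of 21 tested members were higher with shLITATS1-1, 7 with shLITATS1-2, and 5 did not pass the test (4 and 9 with library-size scaling), which is 42.9% and 33.3% of them beside 30.2% and 30.7% of all genes, and none passed a test against a minimum change of 1.5-fold. DICER1, which cuts the hairpin, read 86.4, 80.0 and 75.3 CPM in shNT, 97.2, 105 and 103 with shLITATS1-1, and 119.8, 133 and 128 with shLITATS1-2. The 3 groups were separate, and the difference was 0.32 (SE 0.041) toward shLITATS1-2. Argonaute 1 (AGO1) was higher with shLITATS1-1, at 35.6 against 24.6 CPM, and the silencing scaffold TNRC6B with shLITATS1-2, at 24.5 against 34.5 CPM. The part of these differences in the other results was not tested.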

How the data were processed

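The deposited table holds whole-number counts of fragments per gene for 60676 Ensembl genes; per the submitters' processing notes the authors' tools were FastQC, cutadapt 2.10, STAR 2.7.5a and HTSeq 0.12.4 on GRCh38. The annotation release and the strand setting of the counts are in no source used here; symbols and coordinates came from GENCODE 29, and 15456 of the 15500 tested genes had a symbol. The counter's lines for fragments without a gene entered neither the library sizes nor the tests: 10.2% to 10.9% of all fragments were ambiguous, 3.66% to 5.57% were unaligned and 2.29% to 2.63% had no feature. Genes passed filterByExpr at a minimum count of 10, and edgeR 4.0.16 fitted all 9 libraries together (TMM scaling, robust quasi-likelihood test, two-sided, Benjamini-Hochberg over all tested genes, threshold 0.05, 6 residual degrees of freedom). The contrast was shLITATS1-1 minus shLITATS1-2. shNT is given as a level only; both hairpins share those controls, and calls against it are not reported.

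Genes named were LITATS1, the 20 with the largest called differences in each direction at a mean log2 CPM of 1 or more, up to 5 called members per list and direction, and the TGF-β receptors and SMADs; this rule took in 456 genes, of which 156 are given with values. These lists, their members and the rule were chosen with earlier results of these data known, and no list was tested as a group. Promoters came from RefSeq (GRCh38.p14), matched by symbol. The fit was tested on simulated counts of 15203 genes, with 50 genes changed at each of 1.25-fold, 1.5-fold, 2-fold and 4-fold. It recovered 72% of genes changed 1.25-fold and 96% of those changed 2-fold. The 15 false calls were 7.73% of the calls made, a share above the threshold set for the adjusted p. Far fewer genes were changed there than the 60.9% called between the hairpins. The simulation therefore cannot show what share of those calls is false. Alternatives were DESeq2 1.42.0 and its size factors, library-size scaling, other filters and thresholds, mitochondrial genes left out, the 6 hairpin libraries alone, a replicate block, corrections for GC content and length (values for 99.3% of genes) and each library left out. A few of those genes and 1 gene list are not reported here.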

Additional observations from a re-analysis of the deposited data

Results flagged for a closer look

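The share of fragments with no alignment lies outside the gene counts that the comparison uses, and it stood above the shNT level in every hairpin library. It averaged 5.56% of all fragments with shLITATS1-1 and 5.43% with shLITATS1-2, against 3.79% in shNT (n = 3 each). What these fragments are was not tested.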

How the results depend on the processing

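Of 2940 values of 155 genes under 19 alternatives, 2932 kept their direction and their side of the threshold. Those 19 leave out the adjusted p of 0.01 and the test against a minimum change of 1.5-fold. For single genes and list medians these stricter settings were not compared, so calls with small differences may be lost under them. SMAD4, which did not pass, went to -0.050 with library-size scaling, -0.029 with the GC correction and -0.030 with the length correction, and it passed (0.16) without shLITATS1-2 replicate 2; the other 4 were the lost calls of TGFBR1 and SMAD2. The count of genes called stayed between 7915 (adjusted p under 0.01) and 10205 (library-size scaling), except that a test against a minimum change of 1.5-fold called 1675 genes, 1090 higher with shLITATS1-1 and 585 with shLITATS1-2. In the same order, that test called 4 and 0 contractile genes, 2 and 6 genes of the ATF4 list, and 2 and 0 cytosolic ribosomal protein genes. DESeq2 called 8219. At 2-fold, a minimum count of 50 left 679 genes, 454 and 225 by direction, since fewer genes were tested. Leaving out single libraries gave 8772 to 9670 calls and 1348 to 1426 at 2-fold, and a LITATS1 difference of 0.04 to 0.22. Correlations of same-numbered libraries of the hairpins were 0.17, 0.02 and 0.05, and those of other numbers ran from -0.12 to 0.083. The highest was that of replicate 1 with replicate 1, so these values do not settle whether the numbers pair the samples. The fit with a replicate block called 9264 genes. List medians near 0 changed sign. With library-size scaling they became -0.060 for the endoplasmic reticulum, -0.070 for RNA interference, -0.0047 for TGF-β ligands, -0.11 for TGF-β receptors and SMADs, -0.095 for antigen presentation, -0.039 for axon guidance, -0.0068 for glycolysis, -0.11 for heat shock chaperones, -0.041 for lineage factors, -0.092 for lysosomes, -0.074 for EGF ligands and receptors, -0.0033 for cyclin-dependent kinase inhibitors, -0.053 for the nuclear respiratory chain and -0.068 for squamous genes. With the GC correction they became -0.059 (endoplasmic reticulum), 0.028 (Notch), -0.060 (RNA interference) and -0.011 (heat shock); with the length correction -0.033 (receptors and SMADs) and -0.047 (antigen presentation); and with a minimum count of 50 -0.029 (receptors and SMADs) and 0.00085 (Notch). Leaving out single libraries moved the median from -0.034 to 0.062 for receptors and SMADs, from -0.0048 to 0.043 for heat shock and from -0.010 to 0.097 for squamous genes. Of 854 recomputed medians of 45 lists, 27 changed sign and another 75, in 33 lists, moved by more than the spread between libraries; values that moved by over 1.5 times stand beside the medians in the report, except for those given above and 2 near 0, which became -0.15 (MAPK) and -0.14 (G1/S) with library-size scaling. The cause of these changes was not tested. Genes under about 1 CPM rest on few fragments, which limits their precision.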
